A study of Homo sapiens with 9 samples.

Results

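Homologous recombination, the Fanconi anemia pathway and the replication checkpoint are represented here by 36 genes, taken as every row of the normalized count table whose symbol stood on a list of 36 repair and checkpoint genes. All 36 were found among the 17518 genes of the table, and all passed the filter on low values, since none had a normalized count under 10 in any library. The list joins 9 genes of DNA end resection and the BRCA1 complexes, 9 of strand exchange and its mediators, 8 of the Fanconi core complex and its chromatin anchor, the FANCD2 and FANCI pair, 6 checkpoint genes, and PARP1 with SLFN11. The measurements come from COR-L279, an established human small cell lung cancer line of the SCLC-N subtype, the subtype marked by the transcription factor NEUROD1. All cells carried the wild-type genotype, were grown in RPMI with heat-inactivated serum, and received for 24 h either DMSO, which is the solvent, or JQ1 at 0.5 or 1.5 µM. JQ1 is a small molecule that releases BET bromodomain proteins from acetylated histones, and the series asked how gene expression answers to it. Each group holds 3 libraries of total RNA that the labels call biological replicates. The labels name 1 cell line and no other cell type, and the line was measured at a single time.

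Homologous recombination repairs a DNA double-strand break by copying an intact sister strand. Nucleases first cut back the broken ends, BRCA1 and its partners commit the break to this route, and BRCA2 and its partners then start the search for the matching strand. The Fanconi core complex marks FANCD2 and FANCI with ubiquitin at DNA crosslinks, while the kinases ATM and ATR sense breaks and stalled forks and hold the cell cycle through CHEK1, CHEK2 and WEE1. Small cell lung cancer divides rapidly, and SLFN11 is studied in it as a marker of sensitivity to DNA-damaging drugs and PARP inhibitors.

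The promoters of 4 members are printed first, because BRCA2 and XRCC2 had the largest increases of the list at 1.5 µM, and FANCD2 and RAD51D the largest decreases. Each window holds 250 bases before and 50 bases after the transcription start, 300 in all, read 5′ to 3′ on the gene's own strand from RefSeq on GRCh38.p14. Capitals mark matches, on either strand, to 4 E2F forms (TTTGGCGC, TTTCCCGC, TTTGGCGG, TTTCGCGC), the CCAAT box (CCAAT), the cell cycle element CHR (TTTGAA), the E box (CACGTG) and the ETS form CCGGAAG. No marked matches overlap in these 4 windows.
BRCA2, chr13:32315258-32315557, strand +: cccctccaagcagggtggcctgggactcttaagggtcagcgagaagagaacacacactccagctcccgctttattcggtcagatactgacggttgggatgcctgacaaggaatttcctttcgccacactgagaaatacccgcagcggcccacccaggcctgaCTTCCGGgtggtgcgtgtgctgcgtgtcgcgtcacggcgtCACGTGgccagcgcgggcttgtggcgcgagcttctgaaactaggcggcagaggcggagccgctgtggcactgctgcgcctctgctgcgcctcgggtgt
XRCC2, chr7:152676092-152676391, strand -: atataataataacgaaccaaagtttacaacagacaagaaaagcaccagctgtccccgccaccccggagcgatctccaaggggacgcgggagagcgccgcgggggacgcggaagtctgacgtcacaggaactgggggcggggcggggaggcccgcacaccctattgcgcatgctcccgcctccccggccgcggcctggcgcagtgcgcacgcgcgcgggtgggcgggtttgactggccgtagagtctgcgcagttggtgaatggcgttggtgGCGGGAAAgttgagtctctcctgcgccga
FANCD2, chr3:10026187-10026486, strand +: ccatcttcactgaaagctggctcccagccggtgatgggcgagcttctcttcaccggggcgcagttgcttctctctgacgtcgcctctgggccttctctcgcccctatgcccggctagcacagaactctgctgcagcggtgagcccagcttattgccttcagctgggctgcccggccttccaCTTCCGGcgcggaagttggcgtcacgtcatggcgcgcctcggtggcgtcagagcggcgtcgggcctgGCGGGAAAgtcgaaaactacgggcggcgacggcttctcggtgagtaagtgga
RAD51D, chr17:35119709-35120008, strand -: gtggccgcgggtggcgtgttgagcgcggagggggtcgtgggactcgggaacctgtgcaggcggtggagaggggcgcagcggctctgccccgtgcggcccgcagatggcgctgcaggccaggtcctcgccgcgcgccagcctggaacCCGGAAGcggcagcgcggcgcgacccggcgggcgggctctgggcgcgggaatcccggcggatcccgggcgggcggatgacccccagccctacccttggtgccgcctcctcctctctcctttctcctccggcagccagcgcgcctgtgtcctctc
The XRCC2 and FANCD2 windows share the E2F form GCGGGAAA, which is TTTCCCGC read on the other strand, although the XRCC2 transcript was higher in JQ1 and the FANCD2 transcript lower. BRCA2 and RAD51D, 1 higher and 1 lower, both carry the ETS form, as does FANCD2. These matches are descriptions of letters and no evidence of binding.

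Over the list, 32 of 36 members matched a RefSeq promoter. At least 1 E2F form stood in 5 of the 32 windows (15.6%), against 3.43% of all 27305 promoters in the table and 5.29% of the promoters of tested genes. The 5 were EXO1 and XRCC2, FANCC, FANCD2 and TOPBP1, of which XRCC2 and FANCC rose, FANCD2 and TOPBP1 fell, and EXO1 did not pass the test. The ETS form stood in 9 windows (28.1%, against 10.7% of all promoters and 18.0% of those of tested genes), the GC box GGGCGG in 26 (81.2%, against 44.6% and 69.1%) and CCAAT in 14 (43.8%, against 35.7% and 36.5%). CHR was found in 3 windows (9.38%, against 15.4% of all promoters and 9.63% of those of tested genes) and the E box in 3 (9.38%, against 7.43% and 9.97%). The TATA form TATAAA stood in none of the 32 windows and in 12.0% of all promoters and 5.67% of those of tested genes.

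The libraries held 60721187 (0.5 µM replicate 2) to 88482001 reads in genes. Neuroendocrine markers were high in every library, with NEUROD1 at 264 to 365 FPKM (a level scaled to transcript length and library size) and CHGA at 362 to 537. The leukocyte markers PTPRC and CD3E and the endothelial marker VWF were listed at no more than 0.02 FPKM. CD68, another leukocyte marker, stood at 0.10 to 0.47 FPKM. The endothelial marker CDH5 was at 0.06 to 0.07 FPKM in DMSO and 0 to 0.01 in JQ1, and PECAM1 had no value. Of the squamous markers, KRT14 was listed at 0 in every library, and TP63 went from 2.22 to 2.32 FPKM in DMSO to 0.08 to 0.14 in JQ1. On the second principal component of all genes, 0.5 µM replicate 2 lay at -50.6 and the other 8 libraries between -11.3 and 25.2. In that library 15 of the 36 members deviated by more than 0.1 on the log2 scale from the mean of the other 2 libraries of its group, against 0 to 10 in the other libraries. Replicate 3 of 0.5 µM and replicates 1 and 2 of 1.5 µM, 3 libraries in all, held 1476 to 2071 normalized counts of H19 and 390.5 to 489 of SLC2A3, which were 8.22 or lower and 3.52 or lower in the other JQ1 libraries. The fibroblast marker LUM followed the same 3 libraries, with 252 to 366 normalized counts against 1.17 to 44.6 in the other 6. DCN, a second fibroblast marker, followed them too, at 0.40 to 0.41 FPKM against 0 to 0.02 in the other 6. YAP1, listed among the SCLC subtype markers, did so as well, at 117 to 178 normalized counts against 7.18 to 12.9. Of the other two fibroblast markers, COL1A1 was at 0.24 to 0.48 FPKM over all libraries, and COL1A2 at 14.7 to 15.7 in DMSO and 4.46 to 6.04 in JQ1. The part of these libraries in the results was tested only by leaving them out.

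At 0.5 µM, 22 of the 36 members were higher than in DMSO, 7 were lower and 7 did not pass the test (limma, Benjamini-Hochberg adjusted p under 0.05). Among all 17514 tested genes 35.3% were higher and 34.7% lower, so a change as such was common, and 70.0% of all genes changed. At 1.5 µM, 24 members were higher, 7 lower and 5 not called, against 36.9% of all genes higher and 36.2% lower (73.1% changed). The median log2 fold change of the list was 0.18 at 0.5 µM and 0.25 at 1.5 µM, beside medians of -0.01 and -0.003 over all tested genes. The DMSO and JQ1 libraries did not overlap for 28 members at 0.5 µM and 33 at 1.5 µM, beside 72.6% and 81.7% of all genes. Both dose comparisons use the same 3 DMSO libraries, so their values stand side by side and are not independent of each other. In RNA from whole cultures a lower share of cells in a given phase of the cell cycle and less RNA per cell cannot be told apart.

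Most changes were small. At 1.5 µM 8 members had moved up at least 1.5-fold and 1, FANCD2, down by as much, and the fitted log2 fold changes ran from -0.82 to 1.07. How many of all tested genes moved as far was not counted, so these counts cannot be set against a background. The calls fell into few patterns. Both doses had the same 21 members higher and the same 7 lower (PALB2, RAD51D, RAD51AP1, RAD54L, FANCG, FANCD2 and TOPBP1). FANCA, FANCE and WEE1 passed only at 1.5 µM, RBBP8 only at 0.5 µM, and EXO1, RAD51C, CHEK1 and CHEK2 at neither dose. With the FPKM values in place of the normalized counts, 19 members were higher and 9 lower at 0.5 µM, and 18 higher and 10 lower at 1.5 µM. Shares of all genes higher or lower are not given beside counts from changed settings, here or below. Without the 3 libraries rich in H19, 22 members were higher and 5 lower at each dose. That fit holds 1 library at 1.5 µM, which is assumed to vary like the other groups, here and wherever a 1.5 µM call is given without these libraries.

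**Figure D1:**
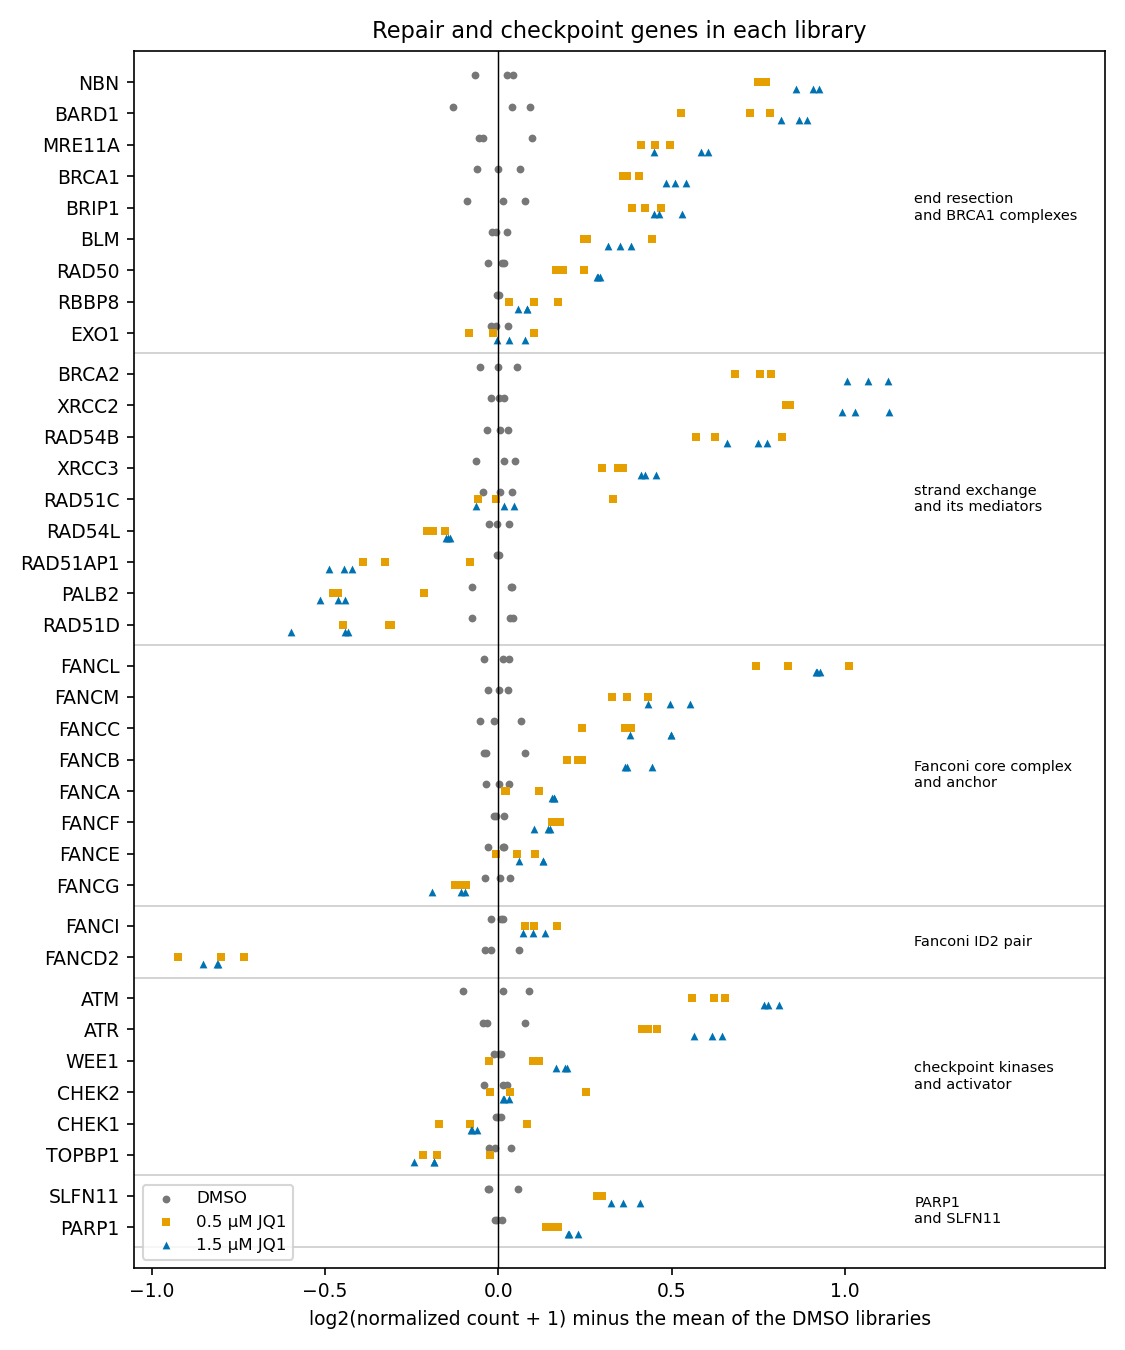
Every library of each of the 36 genes, as log2(normalized count + 1) minus the mean of the 3 DMSO libraries, ordered by role and within a role by the change at 1.5 µM; circles are DMSO, squares 0.5 µM JQ1 and triangles 1.5 µM JQ1. BRCA2, XRCC2, FANCL, NBN and BARD1 lie farthest to the right, FANCD2 lies farthest to the left, and the genes of strand exchange spread to both sides.

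The genes of end resection and the BRCA1 complexes were mostly higher: 8 of 9 were higher at 0.5 µM, 7 of 9 at 1.5 µM, and none was lower at either dose, with medians of 0.38 and 0.48 on the log2 scale. Beside them, 35.3% of all tested genes were higher and 34.7% lower at 0.5 µM, and 36.9% and 36.2% at 1.5 µM. NBN, which brings the MRE11 complex to breaks and to ATM, had 2815, 2999.9 and 3039.8 normalized counts in DMSO, 4960.2, 4970.2 and 5035 at 0.5 µM, and 5354, 5598 and 5532 at 1.5 µM. All JQ1 libraries lay far above all DMSO libraries, and the 1.5 µM libraries lay above the 0.5 µM libraries. The log2 fold change was 0.76 ± 0.037 (SE, n = 3 per group) at 0.5 µM and 0.90 ± 0.037 at 1.5 µM (limma adjusted p = 3.13e-08 and 5.57e-09).

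The other 2 subunits of the MRE11 complex rose less. MRE11A, now named MRE11, is its nuclease and had 2419, 2441 and 2692 normalized counts in DMSO, 3440.3, 3543 and 3345 at 0.5 µM, and 3431, 3826 and 3774 at 1.5 µM. Its JQ1 libraries did not overlap with DMSO, but those of the 2 doses overlapped with each other. RAD50, the subunit that tethers the ends, had log2 fold changes of 0.20 and 0.29 with an SE of 0.032, the smallest rise of the 3 subunits.

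BRCA1, the ubiquitin ligase that directs breaks to recombination, had 4875, 5089 and 5310.0 normalized counts in DMSO, 6744, 6588 and 6532 at 0.5 µM, and 7119, 7246 and 7406 at 1.5 µM. The 3 groups did not overlap, and the log2 fold change was 0.38 at 0.5 µM and 0.51 at 1.5 µM (SE 0.036, limma adjusted p = 4.89e-06 and 3.55e-07). On the FPKM scale the change at 1.5 µM was smaller, 0.28 (limma adjusted p = 0.00963). BARD1, the obligate partner of BRCA1, started at a lower count and rose further: 1082, 1218 and 1264 normalized counts in DMSO, 2039.7, 1707 and 1963 at 0.5 µM, and 2198, 2085 and 2164 at 1.5 µM. The fold change of BARD1 was 1.60 and 1.81. BRIP1, the helicase that binds the BRCT repeats of BRCA1, rose 1.34-fold and 1.40-fold, and the helicase BLM, which helps resect ends and dissolves recombination intermediates, rose 1.24-fold and 1.27-fold.

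RBBP8 encodes CtIP, the cofactor that starts resection. It had the second highest level of the list in DMSO, 86.2 FPKM, and hardly moved: 14551 to 14594 normalized counts in DMSO, 14902 to 16434 at 0.5 µM and 15152 to 15448 at 1.5 µM. The JQ1 libraries did not overlap with DMSO, yet the log2 fold changes were only 0.10 (limma adjusted p = 0.0229) and 0.07 (adjusted p = 0.0803), and the FPKM values gave -0.03 and -0.11. The call at 0.5 µM was lost when any of DMSO replicates 1 to 3 (adjusted p = 0.0522, 0.0602 and 0.0558) or 0.5 µM replicate 1 (0.0515) was left out, and with upper-quartile scaling (0.19), without trend (0.0505) or in the fit to 6 libraries (0.0571). At 1.5 µM the rise passed in 4 of 23 alternatives: with library weights (adjusted p = 0.00274), in the fit to 6 libraries (0.00492), and without 0.5 µM replicate 2 (0.00945) or replicate 3 (0.036). With the FPKM values the decrease passed there (0.0324). EXO1, the long-range resection nuclease, had log2 fold changes of 0.0003 and 0.04 (limma adjusted p = 0.996 and 0.511), and its groups overlapped at both doses.

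Genes of strand exchange and its mediators split evenly, with 4 of 9 higher and 4 of 9 lower at each dose. All tested genes were split about evenly too, at 35.3% higher and 34.7% lower at 0.5 µM and 36.9% and 36.2% at 1.5 µM. Those higher were BRCA2, XRCC2, XRCC3 and RAD54B, and those lower were PALB2, RAD51D, RAD51AP1 and RAD54L. BRCA2, a mediator of strand exchange that binds single-stranded DNA, had 1323, 1372 and 1426 normalized counts in DMSO, 2319, 2205 and 2369.5 at 0.5 µM, and 2761, 2993 and 2877 at 1.5 µM. The 3 groups did not overlap, and the level rose with dose. The fold change was 1.67 at 0.5 µM and 2.09 at 1.5 µM (log2 0.74 and 1.07, SE 0.047, limma adjusted p = 2.06e-07 and 9.32e-09), the largest at 1.5 µM on the list. PALB2, the bridge between BRCA1 and BRCA2, moved the other way, with 1734, 1602 and 1730.2 normalized counts in DMSO, 1212, 1453 and 1225 at 0.5 µM, and 1180.3, 1225 and 1241 at 1.5 µM. Its log2 fold changes were -0.38 and -0.47 (SE 0.069, limma adjusted p = 0.000551 and 0.000107), and no JQ1 library reached the lowest DMSO library.

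RAD51C, RAD51D, XRCC2 and XRCC3 are related proteins that form complexes promoting strand exchange, and they did not move together. XRCC2 had 1305, 1285 and 1319 normalized counts in DMSO, 2333, 2337 and 2317 at 0.5 µM, and 2659, 2594 and 2847 at 1.5 µM. Its groups were tight and far apart, with fold changes of 1.79 and 2.07 (limma adjusted p = 3.39e-08 and 4.17e-09). RAD51D, which binds XRCC2 directly, had 1131, 1041 and 1123 normalized counts in DMSO, 804, 885 and 881 at 0.5 µM, and 808, 813 and 724 at 1.5 µM. Every JQ1 library was below every DMSO library, and the log2 fold changes were -0.36 and -0.49 (SE 0.064, limma adjusted p = 0.00054 and 4.58e-05). XRCC3 rose by 0.34 and 0.43 on the log2 scale.

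RAD51C, the subunit common to both complexes, had 2989.9 to 3174 normalized counts in DMSO, 2964 to 3879.7 at 0.5 µM and 2947 to 3185 at 1.5 µM, and the groups overlapped. The value of 3879.7 belongs to 0.5 µM replicate 2, which was 0.36 above the mean of its group mates on the log2 scale, the largest deviation of any member in any library. The fitted changes were 0.09 (limma adjusted p = 0.372) and -0.001 (0.989). Without that library the change at 0.5 µM was -0.03.

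RAD54L and RAD54B are translocases that act during strand exchange. RAD54B had 1517, 1479.7 and 1542 normalized counts in DMSO, 2332, 2669 and 2248 at 0.5 µM, and 2389, 2592 and 2544 at 1.5 µM, a rise of 1.59-fold and 1.66-fold with no overlap. RAD54L fell by 0.18 and 0.14 on the log2 scale (limma adjusted p = 0.000574 and 0.00247), and its call at 1.5 µM was lost without the 3 libraries rich in H19 (adjusted p = 0.0604). RAD51AP1, which promotes the pairing of strands, had 4574, 4585 and 4592 normalized counts in DMSO, 3656, 4332 and 3497 at 0.5 µM, and 3266, 3367 and 3421 at 1.5 µM. Its 0.5 µM replicate 2 lay nearer to DMSO than its mates did, and the log2 fold changes were -0.27 and -0.45 (SE 0.066).

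**Figure D2:**
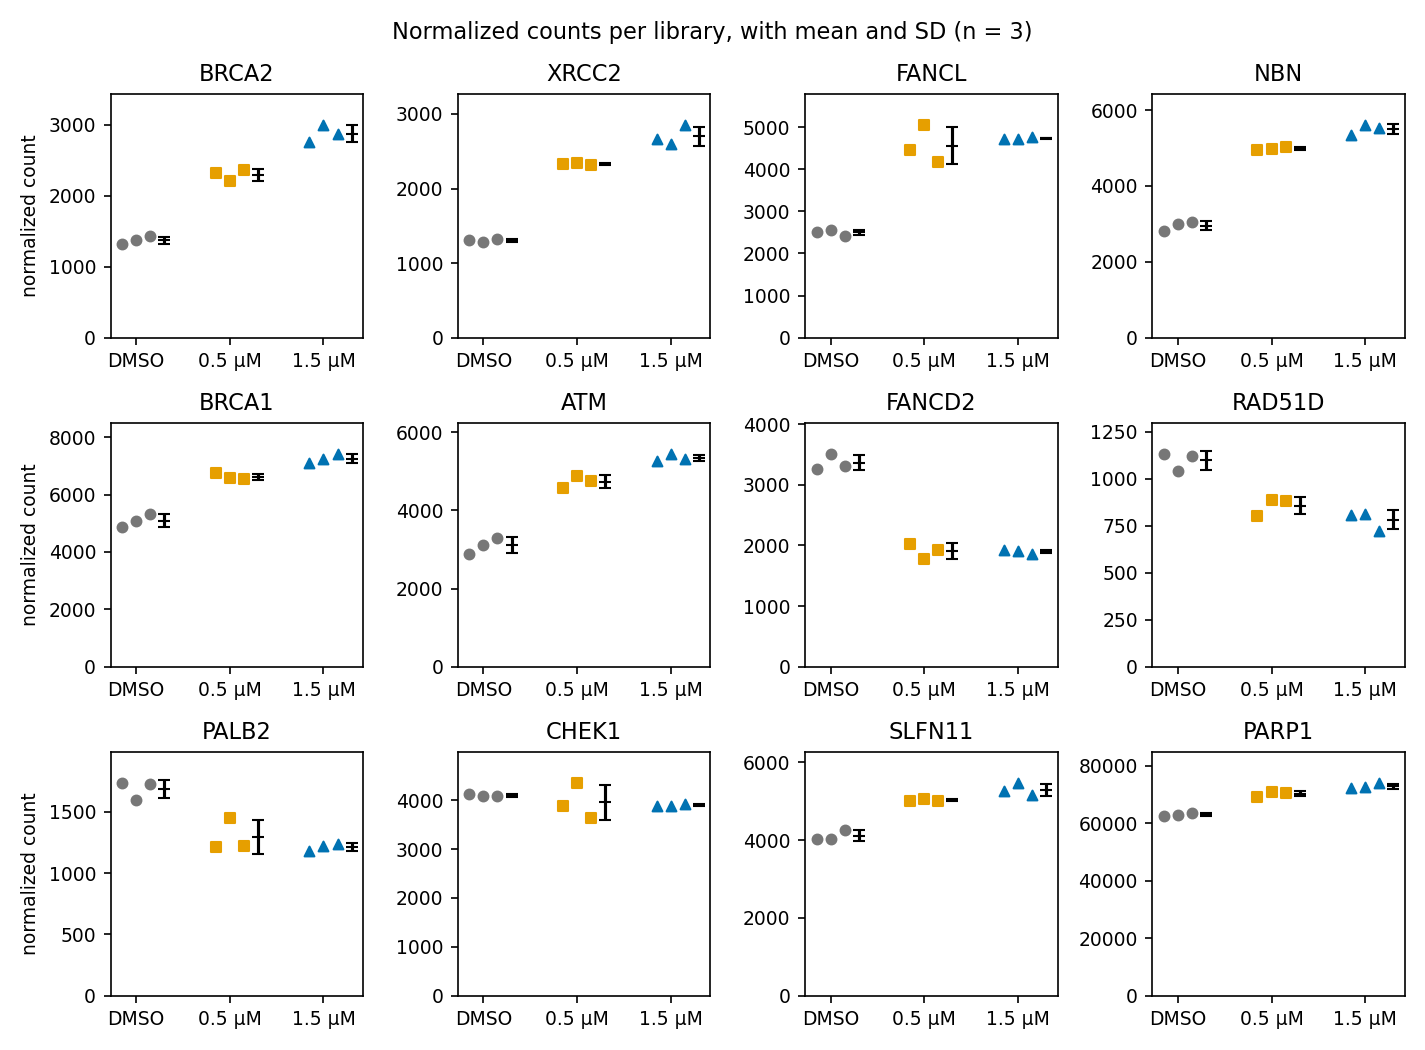
Normalized counts of 12 genes in each library, with the mean and SD of the 3 libraries of a group beside the points and every axis starting at 0. BRCA2, XRCC2, FANCL, NBN, BRCA1 and ATM lie higher in all 6 JQ1 libraries than in DMSO, FANCD2, RAD51D and PALB2 lie lower, and CHEK1 overlaps with DMSO at 0.5 µM.

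The Fanconi core complex and its anchor rose more often than they fell: 5 of 8 genes were higher and 1 lower at 0.5 µM, and 7 were higher and 1 lower at 1.5 µM. Over all tested genes the shares were 35.3% higher and 34.7% lower at 0.5 µM, and 36.9% and 36.2% at 1.5 µM. FANCL, the ubiquitin ligase subunit, stood out in size, with 2519, 2548 and 2424 normalized counts in DMSO, 4456, 5039 and 4179 at 0.5 µM, and 4714, 4720.2 and 4754 at 1.5 µM. Its JQ1 groups overlapped with each other and lay far above DMSO, at fold changes of 1.82 and 1.89 (log2 0.86 and 0.92, SE 0.058, limma adjusted p = 3.58e-07 and 1.54e-07). FANCB, which binds FANCL in the catalytic module, rose by 0.22 and 0.39 on the log2 scale, although neither call held with the FPKM values (limma adjusted p = 0.286 and 0.0855). FANCB also had the lowest level of the list in DMSO, 2.98 FPKM.

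FANCM, the translocase that anchors the core complex on DNA, rose by 0.38 and 0.49 on the log2 scale (limma adjusted p = 2.06e-05 and 1.99e-06), or by 0.31 at 1.5 µM with the FPKM values. FANCC rose by 0.33 and 0.46, and FANCF, the adaptor between FANCM and the rest, by 0.17 and 0.13, of which the second was 0.07 with the FPKM values and did not pass (limma adjusted p = 0.0944). FANCE, which contacts FANCD2, was called at 1.5 µM only (log2 0.11, limma adjusted p = 0.045), and that call was lost when any of DMSO replicates 1, 2 and 3, 0.5 µM replicate 3 or 1.5 µM replicates 1 and 3 was left out (adjusted p = 0.0543 to 0.129), as with the FPKM values (0.416), upper-quartile scaling (0.293), DESeq2 (0.0622) and without the 3 libraries rich in H19 (0.155). FANCG, the scaffold that joins FANCA, fell by 0.11 and 0.13 on the log2 scale and by 0.24 and 0.30 with the FPKM values. Its call at 0.5 µM was lost without DMSO replicate 3 (limma adjusted p = 0.0652) or the 3 libraries rich in H19 (0.0633).

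FANCA, another scaffold subunit, depended on the measure. Its normalized counts were 4088, 4193 and 4281 in DMSO, 4255, 4242 and 4543 at 0.5 µM, and 4678, 4676 and 4664 at 1.5 µM, which gave log2 changes of 0.05 (limma adjusted p = 0.201) and 0.16 (0.0021). Its FPKM values were 31.03, 29.3 and 31.7 in DMSO, 22.8, 22.96 and 24.99 at 0.5 µM, and 29.9, 26.4 and 25.7 at 1.5 µM, which gave -0.38 (limma adjusted p = 0.000912) and -0.17 (0.0481). The direction of FANCA thus differed between the deposited tables. In GENCODE release 29, 22.4% of the exon bases of FANCA overlap ZNF276 on the opposite strand, and ZNF276 itself had log2 changes of -0.05 and -0.03 that did not pass (limma adjusted p = 0.502 and 0.67).

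The 2 targets of the core complex moved in opposite directions. FANCD2 had 3268, 3501 and 3312 normalized counts in DMSO, 2020.0, 1769 and 1929 at 0.5 µM, and 1917, 1912 and 1862 at 1.5 µM. All JQ1 libraries lay well below DMSO, those of the 2 doses overlapped, and the log2 fold change was -0.82 at each dose (SE 0.051, limma adjusted p = 1.91e-07 and 1.26e-07), the largest decrease on the list. FANCI, its partner, had 9412, 9599 and 9645 normalized counts in DMSO, 10259.8, 10736 and 10078 at 0.5 µM, and 10033, 10491 and 10232 at 1.5 µM. These groups did not overlap with DMSO either, and the rise was 0.12 and 0.10 on the log2 scale (limma adjusted p = 0.00824 and 0.0155). The call of FANCI at 1.5 µM was lost without DMSO replicate 1 (adjusted p = 0.054) or 1.5 µM replicate 2 (0.0692), without the 3 libraries rich in H19 (0.126), and with the FPKM values (0.0619). With upper-quartile scaling FANCI was called at neither dose (limma adjusted p = 0.0737 and 0.132). In DMSO, FANCI stood at 46.1 FPKM and FANCD2 at 14.6, so the pair began at unequal levels and moved farther apart, to 50.1 and 7.45 FPKM at 1.5 µM.

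Of the 6 checkpoint genes, 2 were higher and 1 lower at 0.5 µM, and 3 higher and 1 lower at 1.5 µM. The shares of all tested genes were 35.3% higher and 34.7% lower at 0.5 µM, and 36.9% and 36.2% at 1.5 µM. ATM and ATR, the apical kinases, rose at both doses, whereas CHEK1 and CHEK2, their effector kinases, did not pass the test at either dose. ATM had 2889, 3127 and 3297 normalized counts in DMSO, 4568, 4881 and 4768 at 0.5 µM, and 5275, 5438 and 5317 at 1.5 µM. The 3 groups did not overlap, at log2 changes of 0.61 and 0.79 (SE 0.048, limma adjusted p = 1.08e-06 and 1.15e-07), and the FPKM values gave 0.33 at 0.5 µM (adjusted p = 0.0425). ATR had 2482, 2503 and 2702 normalized counts in DMSO, 3515, 3414 and 3452 at 0.5 µM, and 3788, 3930.4 and 4006 at 1.5 µM, again without overlap. The log2 changes of ATR were 0.43 and 0.61 (SE 0.041), and with the FPKM values 0.23 (limma adjusted p = 0.0567) and 0.30 (0.0204).

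CHEK1 had 4123, 4077 and 4092 normalized counts in DMSO, 3873, 4343 and 3640.4 at 0.5 µM, and 3888, 3879 and 3925 at 1.5 µM. Its 0.5 µM libraries spread across DMSO, with replicate 2 above it, while the 1.5 µM libraries lay just below. The log2 changes were -0.06 (limma adjusted p = 0.378) and -0.07 (0.253). Without 0.5 µM replicate 2 the first was -0.13 (adjusted p = 0.00318) and the second passed as well (0.0325), and the FPKM values gave -0.19 and -0.28. In all, the decrease of CHEK1 passed in 3 of 23 alternatives at 0.5 µM, where its sign turned in 2. At 1.5 µM it passed in 5 of 23. CHEK2 had 1838 to 1924 normalized counts in DMSO, 1859 to 2251 at 0.5 µM and 1907 to 1929.7 at 1.5 µM, and its groups overlapped at both doses.

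WEE1, the kinase that holds CDK1 inactive before mitosis, had 4822 to 4887 normalized counts in DMSO, 5269, 4772 and 5213 at 0.5 µM, and 5455, 5550.0 and 5579.7 at 1.5 µM. The lowest 0.5 µM library was replicate 2, below all DMSO libraries, and without it the 0.5 µM change rose from 0.06 to 0.11 on the log2 scale and passed (limma adjusted p = 0.00209). The 1.5 µM change was 0.19 (limma adjusted p = 0.00141), and 0.07 with the FPKM values (0.209). TOPBP1, the activator of ATR, fell by 0.14 and 0.20 on the log2 scale (limma adjusted p = 0.0222 and 0.00263). Its 0.5 µM call was lost without DMSO replicate 3 (adjusted p = 0.0776), 0.5 µM replicate 1 (0.0723) or 0.5 µM replicate 3 (0.0814), and in limma without trend (0.0501). Without the 3 libraries rich in H19 it was called at neither dose (0.147 and 0.0546).

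PARP1, the sensor of single-strand breaks and target of PARP inhibitors, was by far the most abundant member at 275 ± 3.89 FPKM (SD, n = 3) in DMSO. It had 62614, 62849.5 and 63525 normalized counts in DMSO, 69339, 71051 and 70421 at 0.5 µM, and 72354, 72584 and 73948 at 1.5 µM. No library of 1 group reached into another, and the fold change was 1.12 and 1.16 (limma adjusted p = 0.000261 and 2.39e-05). On the log2 scale the 0.5 µM change was 0.16, and 0.10 with the FPKM values or upper-quartile scaling. SLFN11, which blocks stressed replication forks, had 4030.3, 4034 and 4272 normalized counts in DMSO, 5021, 5063 and 5013 at 0.5 µM, and 5278, 5463 and 5153 at 1.5 µM. It rose 1.22-fold and 1.29-fold (limma adjusted p = 2.84e-05 and 3.93e-06), with no overlap between the groups.

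Levels between genes were compared on the FPKM scale. In DMSO the list ran from 2.98 (FANCB), 3.58 (BRCA2) and 4.34 FPKM (BARD1) to 54.2 (RAD51C), 86.2 (RBBP8) and 275 (PARP1). Several large increases therefore belong to genes at the low end: BRCA2 went from 3.58 ± 0.10 to 5.54 ± 0.841 and 6.28 ± 0.828 FPKM (SD, n = 3), and XRCC2 from 4.80 ± 0.081 to 8.57 ± 0.131 and 9.64 ± 0.442. RBBP8 and RAD51C, near the top, did not rise on this scale at 1.5 µM, at 79.9 ± 1.45 and 50.7 ± 2.79 FPKM. Level and rise did not always go this way. PARP1, at the top, reached 309 ± 4.47 FPKM at 1.5 µM, and FANCL went from 28.2 to 49.4. FANCB, the lowest, reached 3.47.

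**Figure D3:**
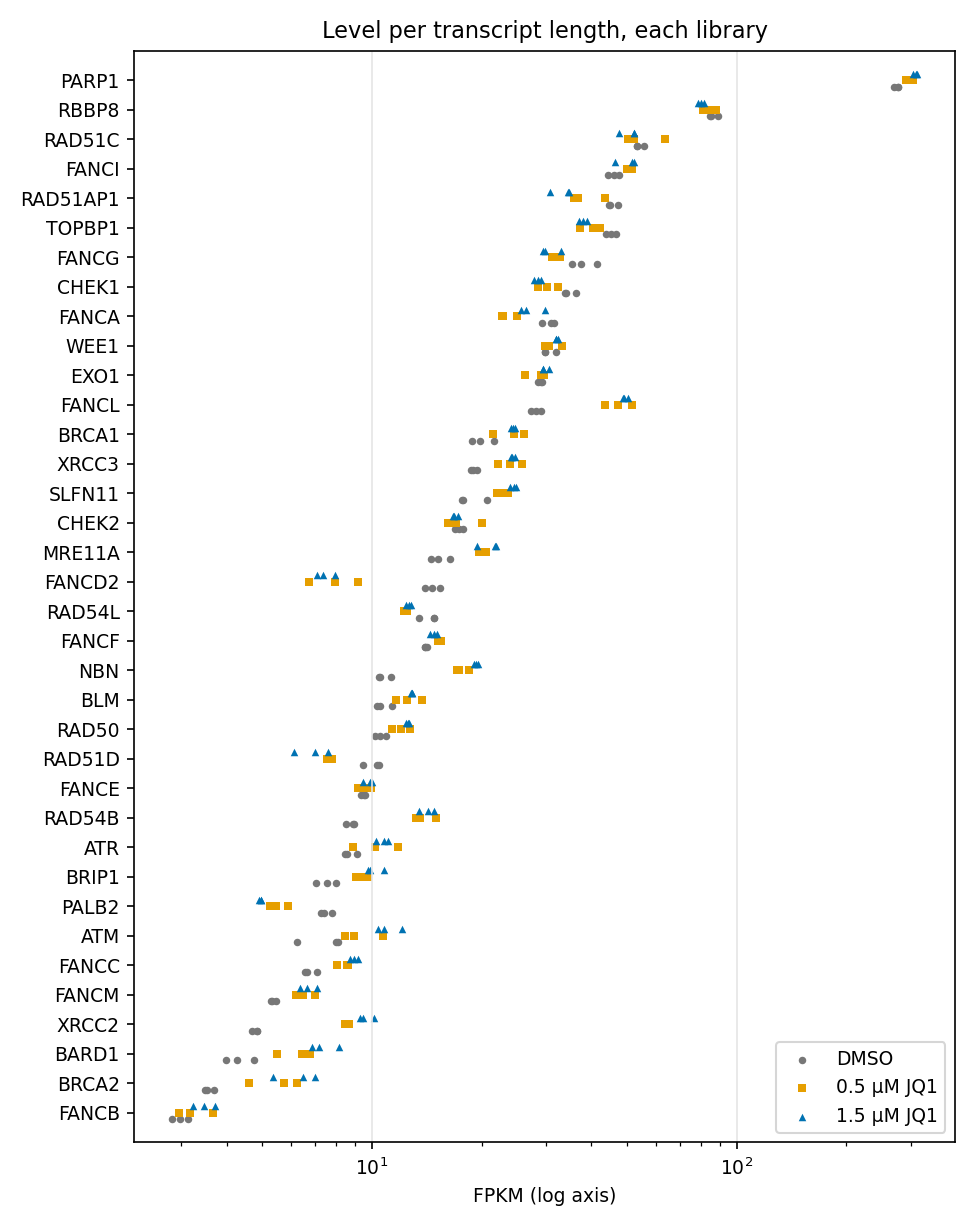
FPKM of each of the 36 genes in every library on a log axis, ordered by the DMSO mean; circles are DMSO, squares 0.5 µM JQ1 and triangles 1.5 µM JQ1. PARP1 stands alone at the top, FANCB, BRCA2 and BARD1 are at the bottom, and FANCD2 is the gene whose JQ1 points lie farthest to the left of DMSO.

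Between the doses, 6 members were higher at 1.5 than at 0.5 µM (BRCA1, NBN, BRCA2, XRCC2, ATM and ATR) and 0 were lower, beside 4.66% of all genes higher and 8.09% lower (12.7% changed). At an unadjusted p under 0.05 the counts were 14 higher and 1 lower. The share of all genes at that unadjusted threshold was not counted, so these counts have no background beside them. With adjusted p-values, the edgeR quasi-likelihood test gave 6 higher and 0 lower, and DESeq2 gave 7 and 1. Libraries of the 2 doses were fully apart for 18 members, beside 33.7% of all genes. The differences were small: 0.32 on the log2 scale for BRCA2 (SE 0.047, limma adjusted p = 0.00217), 0.21 for XRCC2 (0.00935), 0.18 for ATR (0.0215), 0.17 for ATM (0.0413), 0.14 for NBN (0.0342) and 0.13 for BRCA1 (0.0404). The count of 6 depended on single libraries. It was 3 without DMSO replicate 2, 0.5 µM replicate 1 or 1.5 µM replicate 1, and 2 without 1.5 µM replicate 2 or replicate 3. It was 8 without 0.5 µM replicate 2. BRCA2 and XRCC2 kept their calls whichever single library was left out. The count was 0 with the FPKM values, and 0 without the 3 libraries rich in H19, where BRCA2 differed by 0.35 (adjusted p = 0.132) with 1 library left at 1.5 µM.

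Base composition was set beside the changes. Over the 36 members, the share of G and C in the longest coding transcript (GENCODE release 29) had a Spearman rho of -0.51 with the log2 fold change at 0.5 µM and -0.50 at 1.5 µM. Across 13677 of the tested genes the same measure gave -0.18 and -0.19. These are correlations across genes, which share the same 9 libraries and are not independent replicates. Transcript length gave 0.21 and 0.26 over the members and 0.10 and 0.14 over all matched genes. Of the members, 19 lay in the lowest quartile of G and C content (30.2 to 42.3%), and 15 of these were higher and 1 lower at each dose. Of all genes in that quartile 49.0% and 49.8% were higher at 0.5 and 1.5 µM, and 25.5% and 28.4% lower. The 10 members of the next quartile had 4 higher and 4 lower at each dose, beside 39.0% and 41.5% of its genes higher and 34.0% and 36.7% lower. Of the 4 members in the third quartile, 3 were higher and 1 lower at 1.5 µM, and of the 3 in the fourth 2 were higher and 1 lower. Of the genes in these quartiles 35.5% and 31.8% were higher at 1.5 µM, and 44.7% and 50.8% lower. BRCA2 (36.3%), NBN (37.3%), BARD1 (38.04%) and FANCL (39.3%) are among the members with the least G and C, and RAD51AP1, which fell, has the least of all (35.97%). XRCC3 has the most (62.5%) and rose. The part of base composition in the results was not tested.

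**Figure D4:**
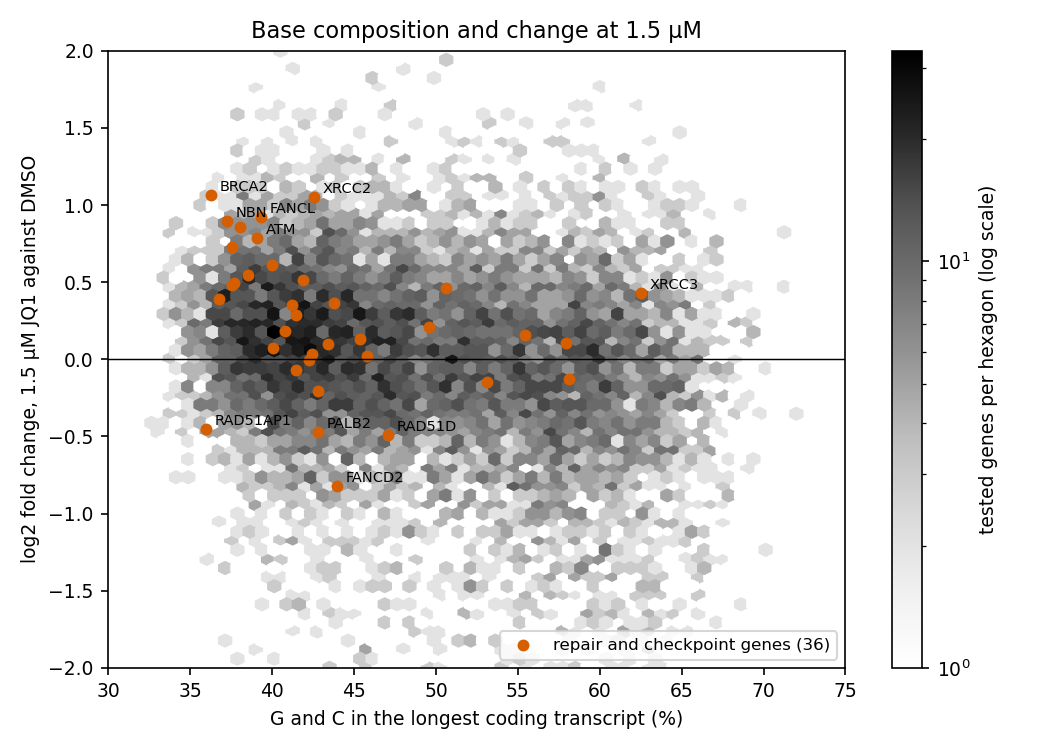
Log2 fold change at 1.5 µM against the percentage of G and C in the longest coding transcript, with the 36 genes as orange points over a grey density of 13677 tested genes, of which 794 lie beyond the vertical limits of -2 and 2. Members with little G and C lie mostly above 0, while RAD51AP1, PALB2, RAD51D and FANCD2 lie below it.

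Of the members, 15 have a neighbour whose transcription starts within 1000 bases on the opposite strand in RefSeq, which makes 16 head-to-head pairs, and in 9 of them the partner was tested here. At 1.5 µM, both genes were higher in 5 pairs (BRCA1 with NBR1, MRE11A with ANKRD49, XRCC3 with ZFYVE21, FANCB with MOSPD2 and ATM with NPAT) and both lower in 2 (PALB2 with DCTN5 and RAD51AP1 with C12orf4). NPAT, a regulator of histone gene transcription, rose by 0.33 and 0.42 on the log2 scale beside ATM, and C12orf4 fell by 0.21 and 0.40 beside RAD51AP1. NBR2, the second neighbour of BRCA1, did not pass the test (limma adjusted p = 0.426 and 0.408). HSCB fell by 0.28 and 0.37 beside CHEK2, which was not called. With 73.1% of all tested genes changed at 1.5 µM, these are counts of pairs and nothing more.

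Exons of 7 members overlap a tested gene on the opposite strand, and whether the authors counted by strand is not stated in the labels or headers, so their values are uncertain to that extent. The overlap covers 45.3% of the exon bases of XRCC3 (with KLC1, which rose by 0.47 and 0.55 on the log2 scale), 26.6% of FANCL (with VRK2, which fell by 0.26 and 0.25) and 18.0% of RAD54L (with LRRC41, which fell by 0.53 and 0.67). It covers 8.33% of FANCI (with POLG, which rose by 1.05 and 1.33), 2.98% of MRE11A and 0.623% of ATM. FANCL rose while its overlapping partner VRK2 fell. RAD54B shares 63.3% of its exon bases with FSBP on the same strand, and reads of the 2 genes may have been split between them.

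Of 86 further genes of these pathways, 83 were tested. At 0.5 µM 40 were higher and 16 lower, and at 1.5 µM 42 were higher and 19 lower, with medians of 0.14 and 0.13 on the log2 scale. The share changed in either direction was 67.5% and 73.5%, near the 70.0% and 73.1% of all tested genes. Of all tested genes 35.3% and 36.9% were higher, and 34.7% and 36.2% lower. Further recombination genes (34) had 18 higher and 3 lower at 0.5 µM and 19 and 6 at 1.5 µM. SLX4, the scaffold of the nucleases that cut crosslinks and junctions, rose 1.99-fold and 2.31-fold. FAM175A, now ABRAXAS1, which ties BRCA1 to ubiquitin at breaks, rose 2.17-fold and 2.54-fold.

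Further Fanconi genes (14) had 8 higher and 2 lower at 0.5 µM and 7 and 2 at 1.5 µM, with APITD1, now CENPS and a partner of FANCM, at fold changes of 1.79 and 1.99. Further checkpoint and break signalling genes (20) had 11 higher and 4 lower at 0.5 µM and 13 and 3 at 1.5 µM. Both classes stand beside 35.3% and 36.9% of all tested genes higher, and 34.7% and 36.2% lower. TIMELESS and TIPIN, which protect the replication fork as a pair, went opposite ways. TIMELESS had 14817 to 15065 normalized counts in DMSO and 24212 to 25967 in JQ1, while TIPIN had 1285 to 1389.5 in DMSO and 794 to 969.6 in JQ1, with no overlap for either gene. H2AFX, the histone variant phosphorylated by ATM at breaks, rose 1.69-fold and 1.77-fold. PKMYT1, which like WEE1 restrains CDK1, fell by 0.57 and 0.63 on the log2 scale, and CDC25A, the phosphatase that opposes WEE1, fell by 0.52 and 0.57.

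End joining and PARP genes (13) went the other way, with 1 higher and 7 lower at 0.5 µM and 1 higher and 8 lower at 1.5 µM, at medians of -0.14 and -0.21 on the log2 scale. For all tested genes the shares were 35.3% higher and 34.7% lower at 0.5 µM, and 36.9% and 36.2% at 1.5 µM. XRCC5, which encodes the Ku80 end-binding subunit, had 48466 to 49160.1 normalized counts in DMSO, 35416 to 38930.3 at 0.5 µM and 33192 to 33854 at 1.5 µM. PARP2 and PARP3, relatives of PARP1 that also act at breaks, fell by 0.61 and 1.21 at 0.5 µM and by 0.87 and 1.40 at 1.5 µM on the log2 scale (limma adjusted p = 1.33e-06 and 1.41e-06 at 1.5 µM), whereas PARP1 rose. The gene of this group that rose was POLQ, the polymerase of microhomology-mediated end joining, at 0.41 and 0.55. SLFN5, a relative of SLFN11, rose 2.54-fold and 2.96-fold from 73.1 to 90.3 normalized counts in DMSO, and SLFN13 rose by 0.70 and 0.80 on the log2 scale. POLQ and SLFN13 lie outside the rule for named genes and were chosen after their values were seen.

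**Figure D5:**
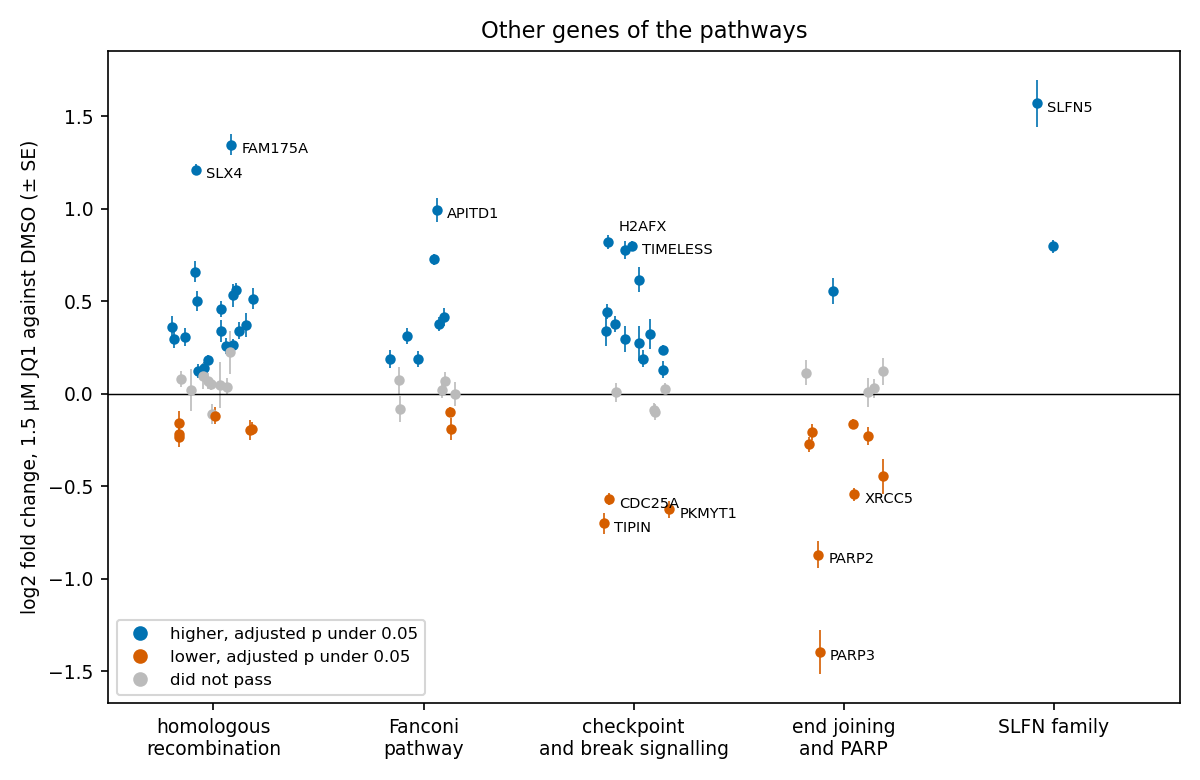
Log2 fold change at 1.5 µM JQ1 against DMSO, with its SE, of 83 further pathway genes in 5 classes; blue points were higher and orange points lower at an adjusted p under 0.05, and grey points did not pass. Recombination, Fanconi and checkpoint genes lie mostly above 0, and end joining and PARP genes mostly below it.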

How the data were processed

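Total RNA of COR-L279 cells was measured in 9 libraries, 3 each for DMSO, 0.5 µM and 1.5 µM JQ1 at 24 h. Per the labels, RNA came from an RNeasy kit and libraries from a stranded TruSeq kit, and cutadapt, STAR and RSEM on the build hg19 are listed in the submitters' processing notes. Versions, annotation and strand setting were not stated there. The authors' deposited normalized counts are a signal per gene, namely gene counts over a size factor for each library. Undoing the factor of each library recovered whole reads for 100% of values (tolerance 0.001). The authors also deposited FPKM values for 57820 genes, scaled to transcript length and library size.

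The main test was limma 3.58.1 in R 4.3.3, run with its trend option on log2(normalized count + 1) over the 9 libraries together, without a replicate block. Genes under a value of 10 in more than 6 libraries were dropped, so 17514 of 17518 were tested. Tests were two-sided, with Benjamini-Hochberg adjustment over all tested genes and a threshold of 0.05. A fold change is measured against the bulk of genes. A p-value weighs a difference against the spread between libraries of a group, which limma pools over the groups and moderates across genes. A simulation, with its spread taken from these same libraries, required recovery only for changes larger than any on the list. Smaller changes and calls among unchanged genes were simulated too, but those rates are not reported here, and no conclusion is drawn from them.

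The members, lists and tests were chosen with earlier results of these data known. All 36 members are named. Of the further pathway genes, those named are, at 1.5 µM, the 6 largest increases and 6 largest decreases past the test at a mean normalized count of 100 or more. Another gene, fixed by name, is not reported here. Alternatives changed the pseudocount (0.1, 5), the filter (none, or 50), the values (FPKM of at least 0.5 in 3 libraries, with 0.1 added before log2), the scaling (TMM, upper quartile), the limma options (no trend, library weights) or the tool, with edgeR 4.0.16 and DESeq2 1.42.0 run on recovered reads. Others fitted 6 libraries at a time, added a replicate block, left out each library, or left out the 3 libraries rich in H19. Gene positions in hg19 are not used here. RefSeq promoters (GRCh38.p14) and GENCODE release 29 gave sequences, base composition and neighbours, matched by name or gene ID.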

Additional observations from a re-analysis of the deposited data

How the results depend on the processing

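The counts of members higher and lower against DMSO stayed within 1.5 times their values at both doses in all 23 alternatives: 18 to 25 higher and 5 to 10 lower. Shares of all genes in the alternatives are not given beside these or the following counts. The dose comparison was less stable. Its 6 higher members became 0 with FPKM values, 3 without trend, 17 with library weights, 0 without the 3 libraries rich in H19, and 2 to 8 with single libraries left out. Its count of lower members (0) became 1 with library weights and with DESeq2, and 0 to 1 with single libraries left out. The 8 further pathway genes changed between the doses became 2 with FPKM, 3 without trend, 24 with library weights, 2 in the fit to 6 libraries, 0 without the libraries rich in H19, and 1 to 13 with single libraries left out. Beyond the fewer samples in the leave-out fits, the cause was not tested. Signs turned for 7 members. With FPKM, at 0.5 µM, RBBP8 became -0.0297, EXO1 -0.0358 and FANCA -0.38, and at 1.5 µM RBBP8 -0.11, FANCA -0.17 and CHEK2 -0.0352. With upper-quartile scaling, EXO1 became -0.0536, FANCA -0.00038 and FANCE -0.0036 at 0.5 µM, and EXO1 -0.0155 and CHEK2 -0.0315 at 1.5 µM. With library weights, at 0.5 µM, EXO1 became -0.0402, RAD51C -0.00724 and CHEK2 -0.0131. With single libraries left out, at 0.5 µM, EXO1 ran from -0.0507 to 0.0433, RAD51C from -0.0319 to 0.16 and CHEK1 from -0.13 to 0.00156. CHEK1 was also 0.00156 at 0.5 µM without the libraries rich in H19. At 1.5 µM, with single libraries left out, RAD51C ran from -0.0253 to 0.0307 and CHEK2 from -0.00079 to 0.0322.

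Replicate numbers did not pair the libraries: correlations of same-numbered deviations ran from -0.385 to 0.131. With the replicate block, 22 members were higher and 7 lower at 0.5 µM, 23 and 7 at 1.5 µM, and 5 and 0 between the doses. The part of depth was not tested, and 3 libraries per group and 1 cell line limit the precision.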
